A study of Mus musculus with 2 samples.

Results

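Gene expression was compared on 9 genes that mark the CD8, CD4 helper and regulatory branches of the T cell lineage, chosen by gene symbol with earlier results of these data known, out of 21877 genes named on the array. They are Cd8a, Cd8b1 and Runx3 of the CD8 branch, Cd4, Zbtb7b and Cd40lg of the helper branch, and Foxp3, Ikzf2 and Ikzf4 of the regulatory branch. The RNA came from mouse CD8 T cells cultured with Tc1 cytokines, which drive CD8 cells toward interferon gamma production and killing, with no further addition in 1 culture and with cholesterol in the other. Total RNA was labelled by a whole-transcript method and measured on 1 array per culture. Mouse strain, age, tissue of origin, purity of the cells before culture and the dose and duration of cholesterol do not appear in the labels. Each group has 1 array, so the values below stand without an error between replicates and without a p-value, and the number of arrays sets their precision.

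T cells that mature in the thymus keep either CD4 or CD8. CD4 and CD8 are coreceptors that bind MHC class II and class I, respectively, and bring the kinase LCK to the T cell receptor. The choice is held by a pair of opposed transcription factors: RUNX3 silences Cd4 and Zbtb7b in CD8 cells, and ThPOK, the product of Zbtb7b, represses Runx3 and the CD8 genes in helper cells. FOXP3 is the lineage factor of regulatory T cells, most of which are CD4+, and the Ikaros family zinc finger proteins Helios (Ikzf2) and Eos (Ikzf4) act with it.

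With cholesterol the 3 CD8 branch genes had signals 1.15-fold to 1.24-fold above those of the untreated array, while Cd4 was 1.54-fold lower. The other helper and regulatory factors that were measurable, Zbtb7b, Ikzf2 and Ikzf4, differed by at most 1.04-fold. Foxp3 and Cd40lg were dimmer with cholesterol, but on both arrays their signals lay within the range of the negative control probe sets. All values are the authors' deposited linear signals, and log2 differences are cholesterol minus untreated. A gene was read against the array's negative control probe sets, whose 95th percentile was a signal of 130.3 on the untreated and 121.8 on the cholesterol array. Where neither signal exceeds it, a fold is left out, and where 1 signal does, the dimmer one is replaced by that percentile and the fold is written with "at least".

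**Figure D1:**
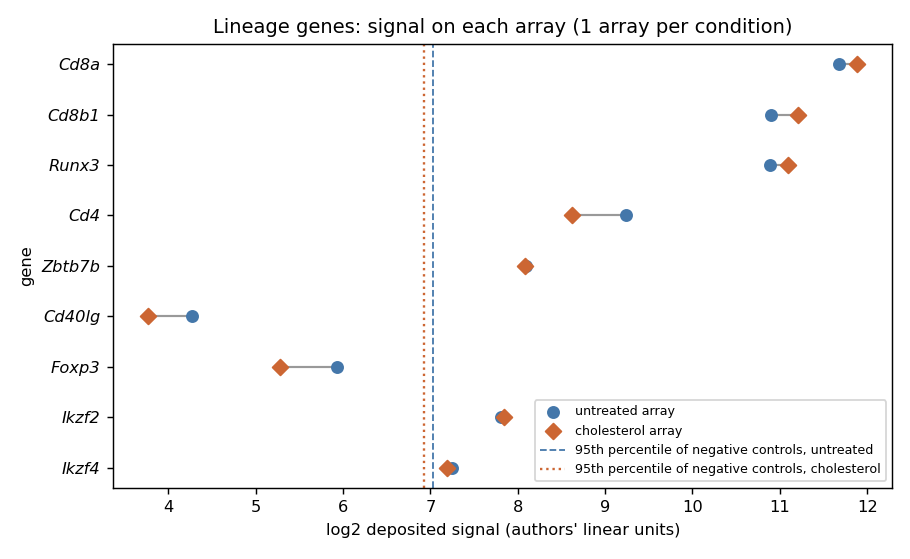
Deposited signal of the 9 lineage genes on a log2 axis, untreated (circles) and cholesterol (diamonds), with 1 array per condition and the 95th percentile of the negative controls of each array as vertical lines. Cd8a, Cd8b1 and Runx3 lie to the right with cholesterol, Cd4 lies at 605 untreated and at 393 with cholesterol, and both signals of Foxp3 and of Cd40lg lie left of the lines.

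Each of the 9 genes was measured by 1 probe set, so no gene has a second probe set as a check. In the files these are TC0600000827.mm.2 for Cd8a, TC0600000826.mm.2 for Cd8b1, TC0400001651.mm.2 for Runx3, TC0600003124.mm.2 for Cd4, TC0300002350.mm.2 for Zbtb7b, TC0X00000533.mm.2 for Cd40lg, TC0X00000058.mm.2 for Foxp3, TC0100002534.mm.2 for Ikzf2 and TC1000003156.mm.2 for Ikzf4. For 67 other genes with a pair of bright probe sets, the log2 differences of the pair disagreed by a median of 0.14 and by 0.68 at the 95th percentile. To read a gene against others of like brightness, the 11327 genes with a signal of at least 47.4 on their brighter array (47.4 being the median over genes and arrays) were split into 5 bands of equal size by mean signal.

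Cd8a encodes the alpha chain of CD8, which carries the LCK binding site in its tail and can pair with itself or with the beta chain. Its signal was 3274 untreated and 3779.9 with cholesterol, a log2 difference of 0.21. Cd8b1 encodes the beta chain, found on conventional CD8 T cells and not on CD8 alpha positive dendritic cells, and its signal was 1914 untreated and 2366 with cholesterol, a log2 difference of 0.31. Both chains were thus brighter on the cholesterol array, the beta chain by 0.099 more than the alpha chain on the log2 scale. Runx3, the factor that silences Cd4 in this branch, had signals of 1892 and 2178, a log2 difference of 0.20.

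These 3 differences were not unusual for bright genes. In the brightest band, the central 95% of 2266 genes ran from -0.34 to 0.45, and 17.4% of the genes were as high as Cd8a or higher, 8.34% as high as Cd8b1 and 18.0% as high as Runx3. The median difference of that band was 0.055. Cd8b1 and Cd8a are neighbours, with 0 protein-coding genes between them in the order of the RefSeq annotation.

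RUNX3 is known to act on Runx3, Cd8a and Zbtb7b. The start-site windows of these genes shown here were picked because each holds a match to the RUNX core motif. The match was thus a ground of choice and not a result. The windows run from 250 bases before to 50 bases after a transcription start and are RefSeq sequences of build GRCm38.p6, written 5′ to 3′ on the strand of the gene. Capitals mark TGTGGT or TGCGGT on either strand, which read ACCACA or ACCGCA on the other.
Runx3, upstream start, chr4:135120395-135120694, plus strand: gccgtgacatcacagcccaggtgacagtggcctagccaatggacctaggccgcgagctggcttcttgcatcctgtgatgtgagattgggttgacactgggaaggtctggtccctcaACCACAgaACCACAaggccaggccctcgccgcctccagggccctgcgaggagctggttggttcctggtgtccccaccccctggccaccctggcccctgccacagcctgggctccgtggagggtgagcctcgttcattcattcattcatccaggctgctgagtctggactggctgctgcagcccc
Cd8a, chr6:71373177-71373476, plus strand: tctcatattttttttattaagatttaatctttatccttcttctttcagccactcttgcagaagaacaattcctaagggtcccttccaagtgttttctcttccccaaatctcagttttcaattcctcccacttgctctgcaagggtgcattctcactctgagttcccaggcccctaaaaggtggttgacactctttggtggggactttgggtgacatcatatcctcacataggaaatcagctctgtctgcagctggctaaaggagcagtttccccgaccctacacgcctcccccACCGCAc
Zbtb7b, downstream start, chr3:89387622-89387921, minus strand: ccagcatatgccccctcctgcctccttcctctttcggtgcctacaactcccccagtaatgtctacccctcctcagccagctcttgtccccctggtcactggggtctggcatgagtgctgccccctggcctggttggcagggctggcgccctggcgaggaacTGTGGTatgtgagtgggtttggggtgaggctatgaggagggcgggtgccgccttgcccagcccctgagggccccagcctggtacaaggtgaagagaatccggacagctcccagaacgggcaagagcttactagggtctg

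The upstream window of Runx3 holds 2 matches, which begin 134 and 126 bases before the start. The window of Cd8a holds 1 match, beginning 43 bases after the first transcribed base, and that of Zbtb7b holds 1, beginning 89 bases before the start. Of all 32851 windows in the table, 22.4% hold at least 1 match and 2.86% hold 2 or more. Of the 9 genes, 4 have windows in the table, 7 in all. The downstream window of Runx3, the upstream window of Zbtb7b and both windows of Foxp3 hold none of these letters. A match describes the sequence only, and binding was not measured.

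Cd4, the coreceptor of helper and regulatory T cells, had a signal of 605 on the untreated and 393 on the cholesterol array, a log2 difference of -0.62. Both signals lie above the 95th percentile of the negative controls, brighter than 98.6% and 98.2% of them, in cultures labelled as CD8 T cells. In its brightness band the central 95% of 2265 genes ran from -0.38 to 0.53, and 16 genes, Cd4 included, were as low or lower, which is 0.706% of the band. It is smaller in size than the 0.68 that probe set pairs reached at the 95th percentile, and it falls just short of 1.5-fold when each array is centred on its own median (-0.58) or when 50 is added to the signals before the log (-0.56).

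Zbtb7b, which encodes the helper lineage factor ThPOK, did not share the difference of Cd4, and its sign turned when the arrays were centred. Its signal was 273.8 untreated and 271.7 with cholesterol, a log2 difference of -0.011, and 35.4% of the genes of its band were as low or lower. The log2 difference of Cd4 was 0.61 below that of Zbtb7b. Cd40lg encodes CD40 ligand, by which activated helper cells stimulate B cells and dendritic cells. It had signals of 19.2 and 13.7, brighter than 64.5% of the negative controls without cholesterol and 52.8% with it, so it was not above background on either array.

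In the regulatory branch the lead factor was too dim to read and its Ikaros family partners were nearly level. Foxp3 read 61.0 on the untreated and 38.7 on the cholesterol array, which is -0.66 on the log2 scale. Both are within the negative controls, of which 88.5% were dimmer on the untreated and 82.1% on the cholesterol array, and 5.74% of the genes in the dimmest band were as low or lower. Ikzf2, which encodes Helios, had signals of 224 and 230.1, a log2 difference of 0.038 that turned below 0 with quantile normalization or loess. Ikzf4, which encodes Eos, had signals of 152 and 146, a log2 difference of -0.055. In their bands, 43.9% of genes were as low as Ikzf2 and 33.8% as low as Ikzf4, so both lie in the middle of genes of like brightness.

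Of the 9 genes, 4 were higher and 5 lower, with a median log2 difference of -0.011, against 0.000 over all genes. Past the brightness filter were 8 of them, all but Cd40lg, and Foxp3 passed only through its untreated signal. Among these 8, 0 reached 1.5-fold on the higher side and 2 (Cd4 and Foxp3) on the lower side. For comparison, 3.22% of all 11327 genes past the filter reached 1.5-fold on the higher side and 2.72% on the lower side. That background depends on brightness: 0.751% of genes were 1.5-fold lower in the band of Cd4, and 7.68% in the dimmest band, that of Foxp3. At 2-fold, none of the 9 differed in either direction, against 0.283% of genes past the filter higher and 0.539% lower.

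**Figure D2:**
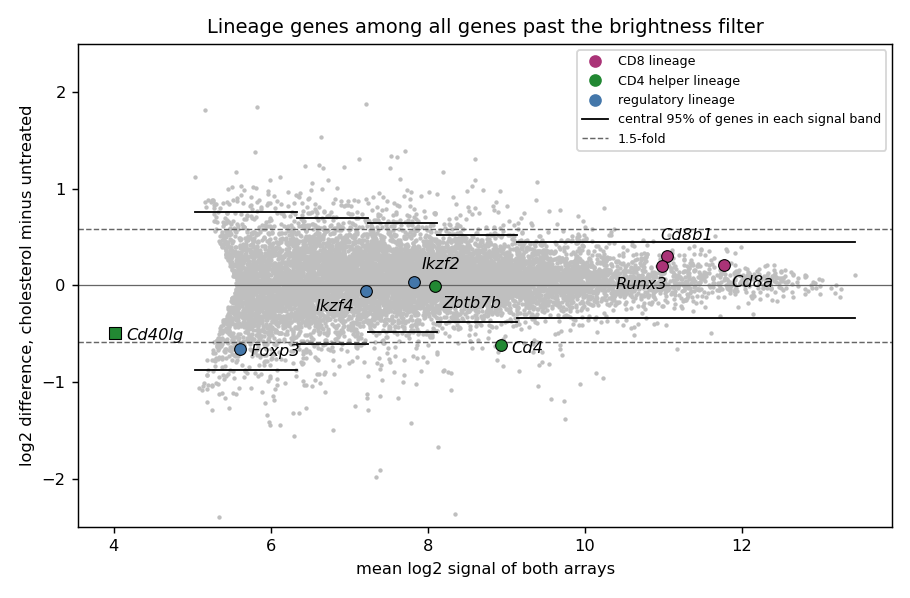
Log2 difference (cholesterol minus untreated) against mean log2 signal of both arrays for the 11327 genes past the brightness filter (grey), with the lineage genes coloured by branch, the central 95% of genes in each of 5 signal bands as black lines and 1.5-fold as dashed lines. Cd4 lies below the black line of its band at -0.62, Foxp3 lies above the line of the dimmest band at -0.66, and the square marks Cd40lg, which did not pass the filter.

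Set against each other within the same pair of arrays, the coreceptors differed in opposite directions. The log2 difference of Cd4 was 0.83 below that of Cd8a and 0.93 below that of Cd8b1, so the ratio of Cd4 to Cd8a signal with cholesterol was 0.563 of its untreated value, and that of Cd4 to Cd8b1 was 0.526. Against Cd3e, a chain of the T cell receptor complex that both CD4 and CD8 T cells carry, the difference of Cd4 was 0.72 lower and that of Cd8a 0.11 higher. A scaling of 1 whole array changes none of these values. In bulk RNA, fewer CD4 cells in the culture and less Cd4 RNA per cell cannot be told apart, nor can a larger share of CD8 cells and more CD8 RNA per cell.

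Companion lists of 100 further genes place these values. They were compiled by the genes' known roles and are described without a test. Genes of T cell receptor and coreceptor signalling were mostly higher, 14 of 15, by small amounts, with a median of 0.11 against 0.049 for all genes past the filter and 0 past 1.5-fold in either direction; with quantile normalization or loess 11 of the 15 were higher. Cd3d went from 1592 to 2188 (1.37-fold higher), Zap70, the kinase recruited to the phosphorylated receptor, from 519 to 713 (1.37-fold), and Cd3e, the brightest, from 4829 to 5153. The 3 other Ikaros family genes were all higher, with Ikzf5 1.26-fold, Ikzf3 1.23-fold and Ikzf1, from 2077 to 2329, 1.12-fold.

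Of 14 other transcription factors of the CD4 and CD8 choice, 11 were higher, 2 lower and 1 (Cbfb, the partner subunit of RUNX proteins, named after its value was seen) equal, with a median of 0.21, and with quantile normalization or loess 9 were higher and 5 lower. Of all genes past the filter, 58.6% were higher as deposited and 49.8% with loess. Tcf7, which encodes TCF-1, was 2.10-fold higher, from 462 to 972, and Satb1, a chromatin organiser of T cells and the brightest of the list, went from 1922 to 2118. Runx1, the RUNX factor of early thymocytes that also represses Cd4, had signals of 120.2 and 60.5, a log2 difference of -0.99, with both within the negative controls.

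Cytotoxic genes of the lineage in which RUNX3 acts differed in both directions. Of 15 genes 8 were higher and 7 lower, with a median of 0.069, and past the filter were 14, of which 3 exceeded 1.5-fold upward and 4 downward, against 3.22% and 2.72% of all genes past the filter. With quantile normalization the median was -0.0029. On the lower side were Gzma, granzyme A (1.94-fold, from 1678 to 865), Prf1, perforin (1.71-fold, from 618 to 361), Eomes, a T-box factor of effector and memory cells (1.58-fold, from 1038 to 655), and the chemokine gene Xcl1 (126.7 and 74.0, within the negative controls). On the higher side were Klrd1, which encodes CD94 (2.13-fold, from 267 to 566), Klrk1, which encodes NKG2D (at least 1.66-fold), and Itgae, which encodes CD103 (34.3 and 89.7, within the negative controls), which passed the filter only through its cholesterol signal. Gzmb, granzyme B and the brightest of the list, had signals of 8464 and 7983, a log2 difference of -0.084.

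Few helper genes other than the 9 were bright enough to read. Of 12 further helper genes 9 were lower and 7 lay within the negative controls on both arrays, and the median was -0.10, but with centred arrays 6 were higher and 6 lower. None of the 5 past the filter reached 1.5-fold in either direction. Ccr4, a chemokine receptor of helper and regulatory cells, was 1.39-fold lower, from 260.6 to 187, Cd200 was at least 1.25-fold lower, and Icos, a costimulatory receptor and the brightest of the list, was 1.10-fold higher at 1990.5. Bcl6 (log2 difference 0.59), named after its value was seen, lay below the filter. Its signals of 21.5 and 32.4 were within the negative controls on both arrays.

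Of 12 further regulatory T cell genes, 7 were lower and 5 higher, with a median of -0.12. Lrrc32, which encodes GARP, the surface anchor of latent TGF-beta on regulatory T cells, was 1.85-fold lower, from 780.2 to 422. Entpd1, which encodes the ectonucleotidase CD39, was 1.61-fold lower, from 353 to 219. Nt5e, which encodes CD73, the next enzyme of the same pathway, was brighter with cholesterol, with signals of 46.5 and 83.9 within the negative controls. Tnfrsf18, which encodes GITR and was the brightest of the list, had signals of 2517 and 2297. Past the filter were 9 of the 12, of which 1 (Nt5e) was 1.5-fold higher and 2 (Lrrc32 and Entpd1) lower. The shares of all genes past the filter were 3.22% and 2.72%. Nt5e passed the filter only through its cholesterol signal. Beside Foxp3, genes of the regulatory list thus differed in both directions, but at 1.5-fold only Nt5e, within the negative controls, was higher. Which cells of the culture carried the transcripts of this list was not tested.

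**Figure D3:**
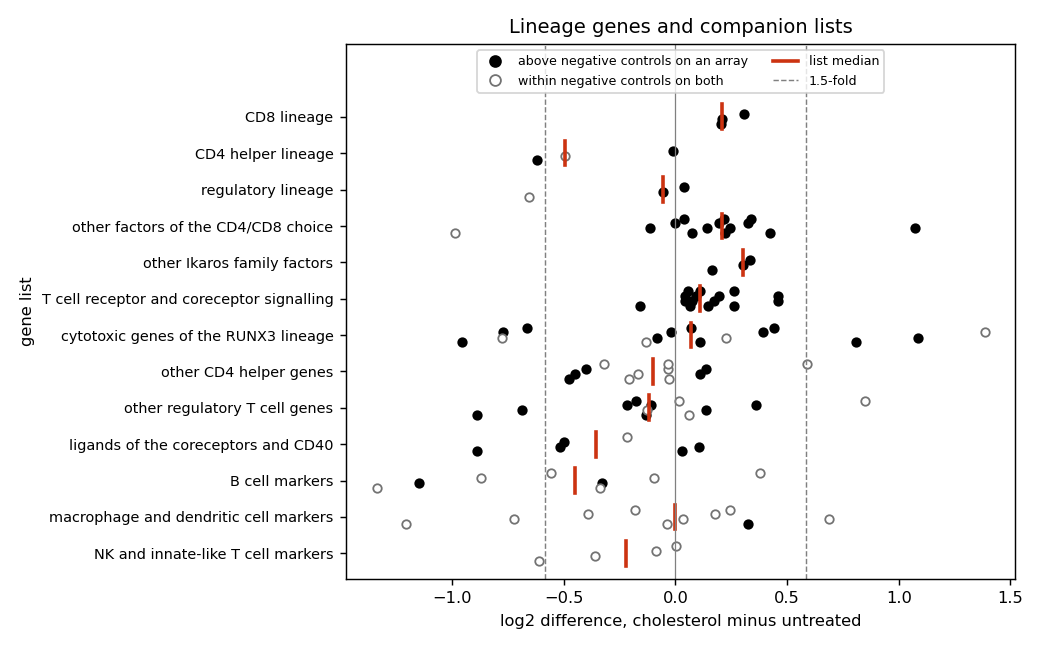
Log2 difference (cholesterol minus untreated) of each gene in the 3 lineage groups and 10 companion lists, with filled points for genes above the negative controls on at least 1 array, open points for genes within them on both, red bars for list medians and dashed lines at 1.5-fold. The median of the CD4 helper genes is the open point of Cd40lg at -0.50, B cell markers have a median of -0.45, and all 4 points of the NK and innate-like T cell markers are open.

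Markers of other cells were also read, and most of them lay within the negative controls on both arrays. For comparison, 10429 of all 21877 genes were lower with cholesterol. Among B cell markers the signal was lower in 7 of 8 genes, their summed signal went from 822 to 515, and 6 of the 8 lay within the negative controls on both arrays. Cd79a, a signalling chain of the B cell receptor and the brightest of them, was at least 2.06-fold lower, while Pax5 (68.6 and 37.5) lay within the negative controls. Cd79b, named after its value was seen, was the only B cell marker above the negative controls on both arrays. It was 1.26-fold lower, from 187 to 149. Markers of macrophages and dendritic cells were lower in 5 of 10 genes, with sums of 385 and 366 (4 of 10 under each of the 3 scalings), and 9 of the 10 lay within the negative controls, Lyz2 (78.8 and 47.7) and Mpeg1 (55.1 and 23.9) included. Cd68, the brightest, had signals of 145 and 181. Of the NK and innate-like T cell markers, 3 of 4 were lower, with sums of 209.9 and 180.7, and all 4 lay within the negative controls, with Klrb1c at 73.9 and 74.0 and Zbtb16 at 60.1 and 46.8.

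By the same sums, in which bright probe sets weigh most, the pan-T cell markers (Cd3d, Cd3e, Cd3g, Cd247 and Cd2) went from 10527 to 12158. The CD8 pair Cd8a and Cd8b1 went from 5188 to 6146, and the helper genes Cd4, Zbtb7b and Cd40lg from 898 to 678. The regulatory genes Foxp3 and Ikzf2 went from 285 to 269. That lower sum came from Foxp3 (61.0 and 38.7), within the negative controls on both arrays, while Ikzf2 went from 224 to 230.1. No marker had a signal of 0 on this array. Of the 3 listed chains of MHC class II, the ligand of CD4, 1 passed 1.5-fold, on the lower side. Of all genes past the filter, 2.72% did so. H2-Aa, an alpha chain, was 1.85-fold lower, from 398 to 215, and its log2 difference was 0.27 below that of Cd4. The beta chains H2-Ab1 (from 441 to 308) and H2-Eb1 (from 257 to 182), named after their values were seen, were 1.43-fold and 1.41-fold lower. B2m, the light chain of class I, the ligand of CD8, had signals of 10801.1 and 11606.6. Of the 6 measured genes among these ligands and Cd40, 4 were lower and 2 higher as deposited. With quantile normalization 5 were lower and 0 higher, and with loess 5 were lower and 1 higher. The part of B cells, of MHC class II-bearing cells or of CD4 T cells in the difference of Cd4 was not tested.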

How the data were processed

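The authors deposited signal intensities on a linear scale for 28846 probe sets, 1 array per group. The software, background correction, normalization and genome build behind them were not given in the sources used here. Their deposited ratio is the quotient of the signals, and the series value table holds the same intensities.

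Of 22206 annotated probe sets, 27 with symbols turned into dates, 3 with none and 1 with a symbol pair were left out. The brightest probe set by mean log2 signal stood for each of 21877 genes. Signals were taken to log2 in Python 3.11.15 with pandas 2.3.3 and statsmodels 0.14.6 (loess), tested on simulated data. Of 109 listed genes 108 matched a symbol and H2-D1 did not.

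The 9 members, the lists and the thresholds were chosen with earlier results of these data known. All 9 members were named. From each other list came the genes past the filter at 1.5-fold or, where there was none, the 2 with the largest difference, and the brightest gene; 1 of these is not reported here. Alternatives were 3 scalings, an offset of 50, the mean of probe sets, a threshold of 2-fold and other brightness filters. Subtraction of the negative control median and the restriction of lists to genes above the negative controls were added after seeing the data.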

Additional observations from a re-analysis of the deposited data

How the results depend on the processing

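No paired analysis was possible because each group has 1 array, and no replicate could be left out. Shifts of a difference or median are listed when above 0.14 on the log2 scale, the median disagreement of probe set pairs. Cd8a (0.15 to 0.25), Cd8b1 (0.25 to 0.35), Runx3 (0.15 to 0.25), Cd4 (-0.69 to -0.56), Foxp3 (-0.90 to -0.32) and Ikzf4 (-0.12 to -0.012) kept their direction over the 6 alternatives in scaling, offset, probe sets and background, while Ikzf2 (-0.037 to 0.082) and Zbtb7b (-0.097 to 0.032) did not. Cd4 passed 1.5-fold in 4 of those 6 and Foxp3 in 5. However, 1 of the 6, the mean of probe sets, could not change these genes, since each of the 9 has 1 probe set. The count of members at least 1.5-fold lower, 2 as reported, was 1 with centred arrays (Foxp3), 0 with the offset of 50, 0 at 2-fold, and 1 among genes above the negative controls (Cd4). The offset took the helper genes' median from -0.50 to -0.12 and that of B cell markers from -0.45 to -0.31. Over genes past the brightness filter, medians were -0.32 for the helper members, -0.40 for the further helper genes, -0.71 for B cell markers and -0.72 for macrophage and dendritic cell markers. Over genes above the negative controls on an array they were -0.32, -0.40, -0.74 (2 B cell markers left) and, for the single macrophage gene left, 0.32, with -0.50 for the ligands. Among all genes past the filter, 365 were 1.5-fold higher and 308 lower, against 100 and 85 with the offset, 523 and 463 with the negative control median subtracted, and 452 and 252 with centred arrays. The signal over background limits Foxp3 and Cd40lg, which ran from -2.72 to -0.12 over the same 6 alternatives.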

Other observations

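The authors' table annotates genes with Gene Ontology processes, and groups were drawn from those words after the values of the lineage genes had been seen. Of 27 genes with a process naming CD4-positive cells, 12 were higher and 15 lower with cholesterol, with a median log2 difference of -0.0066. Zbtb7b and Foxp3 are in that group and Cd4 itself is not. Of 21 genes with a process naming CD8-positive cells, 14 were higher and 7 lower, with a median of 0.069, and Zbtb7b is the member there. Past the filter were 18 of that group. Of these, 0 reached 1.5-fold on the higher side and 4 (Ifng, Xcl1, Ceacam1 and Eomes) on the lower side. In the CD4-positive group 21 were past the filter, and in the regulatory group 16. In the CD4-positive group 1 (Fut7) reached 1.5-fold on the higher side and 5 (Foxp3, Ifng, Xcl1, Ceacam1 and Cd83) on the lower side. In the regulatory group 1 (Fut7) did on the higher side and 2 (Foxp3 and Ifng) on the lower side. Foxp3, which passed the filter only through its untreated signal, and Xcl1 lay within the negative controls on both arrays. Of 20 genes naming regulatory T cells, 10 were higher and 10 lower, with a median of 0.011, and Foxp3 is the member there. The groups share genes, such as Ifng and Fut7. Over all genes the median was 0.000, and of genes past the filter 58.6% were higher, 3.22% by 1.5-fold, and 2.72% were lower by 1.5-fold.

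The 15 other genes of the brightness band of Cd4 that were as low or lower were also listed after their values were seen. The largest differences were those of the enkephalin precursor gene Penk (5.15-fold lower), the chemokine gene Ccl3 (3.20-fold) and Idi1, an enzyme of sterol synthesis (2.12-fold). The others were Furin, Gem, H2-Aa, Dennd5a, Lilrb4a, Prf1, Egr3, Entpd1, Rgs1, Gm10181, Ipw and Irf8, between 1.88-fold and 1.54-fold lower.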
